A study of Mus musculus with 36 samples.

Results

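Chromosome 3 of the mouse was described in 3 maps of replication timing (RT), the order in which parts of the genome are copied during S phase. It was chosen by its share of early bins in CH12 cells, the lowest of the 19 autosomes. Its shares and domain lengths in that map, and comparisons of other maps with that map, are therefore given as a description and support nothing. The members are all domains on this chromosome in the 3 deposited domain maps: 147 of 2625 domains in CH12 cells, 156 of 2661 in primary B cells and 123 of 2151 in mouse embryonic fibroblasts (MEFs), 426 of 7437 in all. A domain is a stretch of 20 kb bins that a hidden Markov model put in 1 of 3 states, early (E), middle (M) or late (L).

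The series measured RT by Repli-seq, in which dividing cells are given BrdU, sorted by DNA content into fractions of early and of late S phase, and the BrdU-carrying DNA of each is sequenced. It holds 36 libraries in 7 groups, and 2 of these groups underlie maps used here. The first is CH12 shLacZ, a mouse B cell lymphoma line (a clone, per the study's methods) that is wild type for Rif1 and was infected with a lentivirus carrying an shRNA against LacZ, the control for infection. The second is WT primary B cells, B cells from the spleen of Rif1+/+ mice activated in culture. Each rests on 4 libraries, 2 replicates of the early and 2 of the late fraction. The methods call the paired sorts of a fraction technical replicates, and elsewhere derive sequencing replicates of CH12 from separately thawed vials, so which of these holds here is not settled. The labels give 1 growth note for all libraries, RPMI with IL4, CD40 and TGF beta, worded for CH12 cells, and give no age or number of mice. The third map is named for WT MEFs, and is tied to no sample of the series, so how those cells were grown and labelled is not known here. No RT values, read counts or markers of cell identity are in the maps, so the labelled cell types could not be checked and the depth is unknown. The authors pooled the replicates of a condition ahead of the HMM. Each condition therefore has 1 map, no replicate error can be given and no difference between maps was tested. Wilson 95% intervals cover counting error over bins, domains or genes only, and neighbouring bins are not independent.

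Replication in mammals proceeds in domains much longer than a gene, with groups of origins that fire at similar times. Early domains tend to be rich in genes, GC and open chromatin, late domains poor in genes and often attached to the nuclear lamina, and between them lie transition regions copied by long-running forks. Some domains keep their timing in every cell type, while others shift as cells differentiate. Chromosome 3 carries both kinds of neighbourhood, among them a histone cluster, the S100 genes, the epidermal differentiation complex and long genes of the nervous system.

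The promoters below stand for the regions that the comparison of maps turns on: 200 bases before the annotated gene start on the gene's own strand, in the mm9 build (NCBIM37), with each CpG in capitals. Pag1 encodes a membrane adaptor that brings the kinase Csk to lipid rafts, lies on the minus strand (chr3:9833680-9833879), and was L in CH12, E in primary B cells and M in MEFs. Gbp5, an interferon-induced GTPase, lies on the plus strand (chr3:142159664-142159863), and was L in CH12 and E in the other two. Cyr61, a secreted matrix protein, lies on the minus strand (chr3:145312950-145313149), and was L, M and E in the same order of maps. Dclk1, a microtubule-binding kinase of neurons, lies on the plus strand (chr3:55046248-55046447), and was L in both B cell maps and E in MEFs. Cd53, a tetraspanin of white blood cells, lies on the minus strand (chr3:106593068-106593267), and was M in CH12, E in primary B cells and L in MEFs. Fcrls, an Fc receptor-like gene, starts in the longest E domain of CH12 on the minus strand (chr3:87067661-87067860), and Fstl5, a follistatin-like gene, in the longest L domain on the plus strand (chr3:75877992-75878191).
Pag1: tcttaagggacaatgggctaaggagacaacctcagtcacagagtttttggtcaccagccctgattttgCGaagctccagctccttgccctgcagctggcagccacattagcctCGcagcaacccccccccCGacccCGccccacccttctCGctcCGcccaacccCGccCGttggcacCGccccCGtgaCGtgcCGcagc
Gbp5: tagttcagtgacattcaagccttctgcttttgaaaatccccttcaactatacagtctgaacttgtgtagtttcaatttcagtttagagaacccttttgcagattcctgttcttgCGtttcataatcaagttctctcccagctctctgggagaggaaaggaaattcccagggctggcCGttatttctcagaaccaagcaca
Cyr61: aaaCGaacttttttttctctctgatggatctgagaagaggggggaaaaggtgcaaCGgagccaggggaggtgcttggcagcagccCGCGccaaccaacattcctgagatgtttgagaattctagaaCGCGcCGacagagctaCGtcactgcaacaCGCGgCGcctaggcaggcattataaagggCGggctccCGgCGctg
Dclk1: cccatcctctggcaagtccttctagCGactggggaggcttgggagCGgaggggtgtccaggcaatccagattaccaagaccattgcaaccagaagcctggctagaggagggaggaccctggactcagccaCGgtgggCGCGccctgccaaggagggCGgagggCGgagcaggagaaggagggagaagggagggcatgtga
Cd53: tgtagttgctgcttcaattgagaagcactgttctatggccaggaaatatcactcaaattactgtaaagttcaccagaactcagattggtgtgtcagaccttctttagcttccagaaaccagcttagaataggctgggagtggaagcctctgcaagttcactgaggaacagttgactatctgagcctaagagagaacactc
Fcrls: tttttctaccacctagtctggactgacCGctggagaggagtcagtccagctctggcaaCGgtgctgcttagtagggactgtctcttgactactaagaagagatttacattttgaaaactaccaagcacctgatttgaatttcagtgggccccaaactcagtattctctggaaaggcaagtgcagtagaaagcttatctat
Fstl5: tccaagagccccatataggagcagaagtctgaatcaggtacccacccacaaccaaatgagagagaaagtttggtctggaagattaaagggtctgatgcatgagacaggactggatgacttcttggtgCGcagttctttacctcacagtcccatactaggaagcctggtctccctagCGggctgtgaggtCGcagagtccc

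These windows held 12 CpGs at Pag1, 14 at Cyr61 and 7 at Dclk1, against 3 at Fstl5, 2 at Gbp5, 2 at Fcrls and 0 at Cd53. A CpG-poor promoter was thus found both in the longest E and in the longest L domain. Over all 1057 protein-coding genes of the chromosome, the median number of CpGs in the same window was 9 in E, 9 in M and 3 in L of CH12, 9, 7 and 2 in primary B cells, and 9, 5 and 2 in MEFs. The plus strand at the centre of the longest E domain of CH12 (chr3:88709951-88710050) and at the centre of its longest L domain (chr3:74609951-74610050) held 0 CpGs in 100 bases each.
Centre of the longest E domain: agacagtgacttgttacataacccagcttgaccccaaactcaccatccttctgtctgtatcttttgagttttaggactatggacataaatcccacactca
Centre of the longest L domain: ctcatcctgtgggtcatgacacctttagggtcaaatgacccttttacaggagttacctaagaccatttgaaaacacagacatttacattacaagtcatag

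In CH12 cells, most of chromosome 3 was late. L bins made up 62.1% (Wilson 95% interval 61.0 to 63.2%) of its 7980 bins, M bins 27.3% (26.3 to 28.3%) and E bins 10.6% (9.97 to 11.3%). The other 18 autosomes had between 12.95 and 46.9% of bins in E in this map, with a median of 23.0%, and the autosome next to chromosome 3 in order was the one at that lower end. Chromosome X, which the rule leaves out, had 8.28%. In primary B cells, the E share of chromosome 3 was 21.1% (20.3 to 22.1%) and the L share 49.9% (48.7 to 51.0%) of 7827 bins with a state. In MEFs the E share was 24.9% (24.0 to 25.9%) and the L share 35.1% (34.1 to 36.2%).

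The place of the chromosome among the autosomes was close to the same in the 2 maps that did not choose it. Its E share was the second lowest of 19 in primary B cells, where the others ran from 20.5 to 51.9%, and the second lowest in MEFs, where they ran from 24.3 to 52.7%. Its L share was the highest of the 19 in both B cell maps, where the highest of the others was 57.4% (CH12) and 48.0% (primary B cells). In MEFs, 2 autosomes had a higher L share, of up to 36.4%. The M share stood among those of the other autosomes in each map. The first 3 Mb, 150 bins of wholly unknown bases, were M in CH12 and MEFs and without a state in primary B cells, and without them the M shares were 25.9% in CH12 and 38.8% in MEFs.

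**Figure D1:**
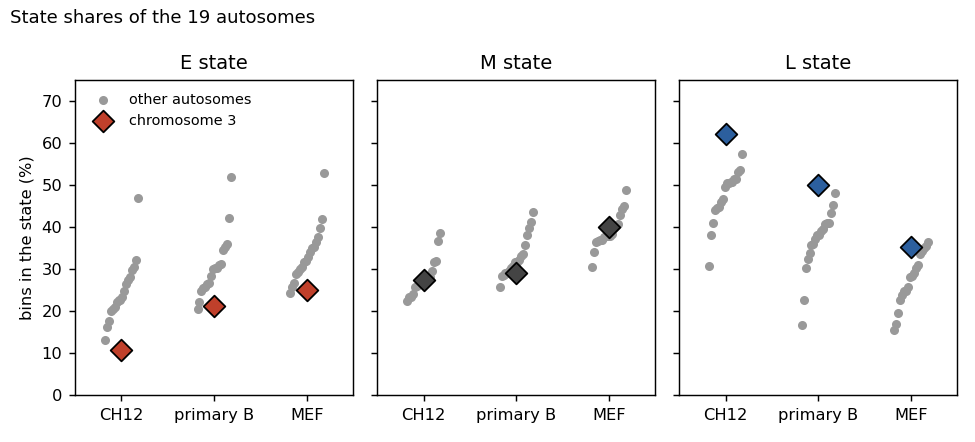
Share of bins in the E, M and L state (y axis, percent) of chromosome 3 (diamond) and of the 18 other autosomes (grey points, in order of their share) in the 3 maps. Chromosome 3 has the lowest E share in CH12 (10.6%) and the highest L share in CH12 (62.1%) and primary B cells (49.9%).

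Chromosome 3 is poor in GC and in genes. Its GC content of 40.5% and its 7.62 CpGs per kb of known bases were the lowest of the 19 autosomes, and its 6.76 protein-coding genes per Mb the fourth lowest. Over the 19 autosomes, which differ in length and include chromosome 3, the E share in primary B cells correlated with gene density (Pearson r = 0.74, Spearman rho = 0.75) and with GC content (r = 0.77, rho = 0.67). In MEFs the values were r = 0.79 and rho = 0.81 for gene density and r = 0.83 and rho = 0.80 for GC content. These are descriptions, and the part of composition in the RT of the chromosome was not tested.

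E domains of chromosome 3 were fewer in CH12 than in the other maps, and their median length was lower, with overlapping intervals. CH12 had 23 E, 74 M and 50 L domains, primary B cells 35, 78 and 43, and MEFs 31, 62 and 30. The median E domain was 480 kb long in CH12 (95% interval 280 to 780 kb from order statistics), 580 kb in primary B cells (460 to 980 kb) and 1040 kb in MEFs (640 to 1500 kb). The median L domain was 1380 kb (960 to 2020 kb), 1300 kb (720 to 2240 kb) and 1470 kb (760 to 2060 kb) in the same order, and these intervals overlap. M domains had medians of 400 kb (320 to 560 kb), 370 kb (320 to 480 kb) and 780 kb (520 to 980 kb). Domains over 1000 kb numbered 4 of 23 in E and 30 of 50 in L in CH12, against 11 of 35 and 24 of 43 in primary B cells and 17 of 31 and 18 of 30 in MEFs. The median E length in CH12 was the lowest of the 19 autosomes, the others running from 520 to 1180 kb. This rank rests on the E calls that chose the chromosome. The median E length was the third lowest in primary B cells, where the others ran from 540 to 1000 kb. In MEFs it was number 12 from the lowest, where they ran from 710 to 1260 kb. RT had been smoothed over 300 kb before the states were called, and 7 E and 25 M domains of CH12 were shorter than that.

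**Figure D2:**
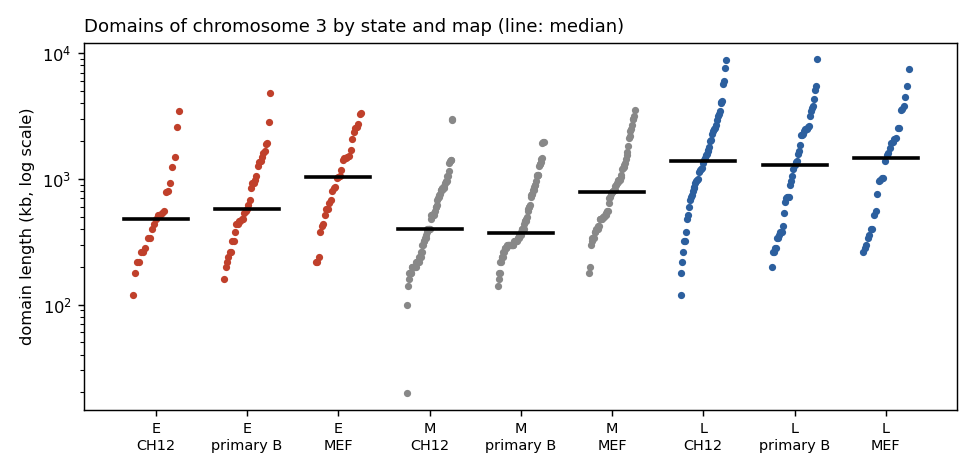
Length of every domain of chromosome 3 (points, kb, log scale) by state and map, with the median as a line. The median E domain is 480 kb in CH12, 580 kb in primary B cells and 1040 kb in MEFs.

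E and L domains never touched, so every passage from one to the other ran through M. Contacts were used in reading the state numbers, so this is no finding. In CH12, 35 of 74 M domains (47.3%) lay between 2 L domains, 28 (37.8%) between an E and an L domain and 9 (12.2%) between 2 E domains. Over 20 chromosomes, 29.6% of M domains of CH12 lay between 2 L domains. In primary B cells, 17 of 78 (21.8%) on chromosome 3 lay between 2 L domains and 47 (60.3%) between E and L, and in MEFs 11 of 62 (17.7%) and 36 (58.1%). The shares over 20 chromosomes were 21.5 and 54.2% in primary B cells and 22.7 and 45.5% in MEFs. The share between 2 L domains was thus above that of the genome in CH12, near it in primary B cells and below it in MEFs. The CH12 share is not independent of the choice of the chromosome. The median M domain between E and L was 260 kb long in CH12, 340 kb in primary B cells and 740 kb in MEFs.

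From the start of the chromosome, the CH12 map began with M over unknown bases, followed by an L domain of 5720 kb with 10 gene starts. The first E domain came at chr3:19080001-19480000 and the second at chr3:21680001-22020000. The next stretch, chr3:22020001-51060000, held no E bin over 29040 kb, with 376 M and 1076 L bins and 101 gene starts. The longest stretch without an E bin was 13600 kb in primary B cells (chr3:37340001-50940000) and 17680 kb in MEFs (chr3:9400001-27080000). Short E domains of 260 to 800 kb then followed up to 66 Mb, among them chr3:51060001-51580000 and chr3:52200001-52460000, which flank the M stretch that holds the start of Foxo1, a transcription factor of B cell development. The longest L domain, chr3:70160001-79060000, covered 8900 kb and held 13 gene starts, among them Sis, Slitrk3, Bche, Serpini1, Fstl5 and Rapgef2, and 3 that are not named. Of its 445 bins, 362 were L, 70 M and 13 E in primary B cells, and 389 were L, 55 M and 1 E in MEFs.

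E bins were gathered between 80 and 110 Mb. This stretch is 18.8% of the chromosome's bins and held 539 of 848 E bins (63.6%) of CH12, 799 of 1655 (48.3%) of primary B cells and 671 of 1987 (33.8%) of MEFs, and 506 of 1057 gene starts. Outside it the E share was 4.77% in CH12, 13.5% in primary B cells and 20.3% in MEFs. The longest E domain of CH12, chr3:86980001-90440000, was 3460 kb long with 122 gene starts, which near its start included Fcrls, Cd5l, Fcrl1, Fcrl5, Etv3, Arhgef11, Pear1, Insrr, Sh2d2a, Prcc and Hdgf. All of its 173 bins were E in primary B cells, inside a domain of 4800 kb, and 156 were E and 17 M in MEFs. The second longest, chr3:94160001-96740000, was 2580 kb long with 95 gene starts, among them Ctsk, Mcl1, Ecm1, Car14 and the histone cluster. Together with the third longest, chr3:107300001-108800000, which holds Csf1, they carried 261 of the 362 gene starts (72.1%) in E in CH12. The 3 longest E domains carried 237 of 520 (45.6%) in primary B cells and 257 of 587 (43.8%) in MEFs.

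**Figure D3:**
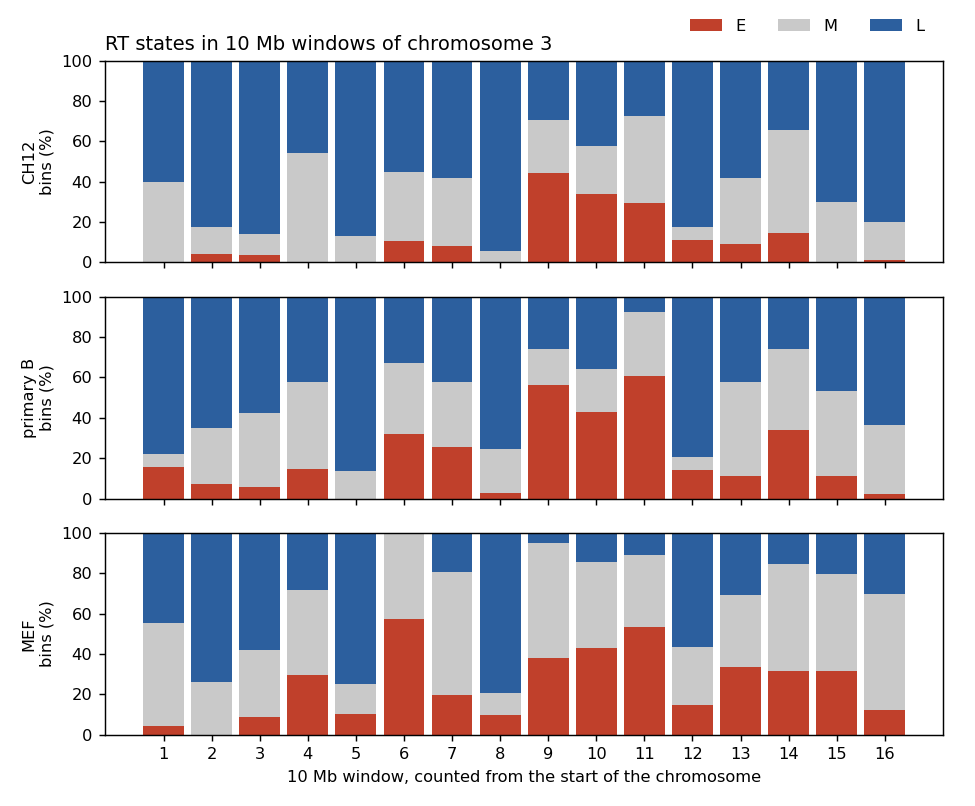
Share of bins in each state (y axis, percent) in the 16 windows of 10 Mb along chromosome 3, for the 3 maps. E shares are highest in the windows from 80 to 110 Mb in CH12 (29.6 to 44.4%), while in MEFs the window from 50 to 60 Mb has 57.6% E bins and 0 L bins.

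Shortly before 110 Mb the CH12 map returned to L, with a domain of 6000 kb at chr3:109020001-115020000 that holds the amylase genes and Col11a1. Later came E domains at S1pr1, a lymphocyte egress receptor, at F3, the initiator of blood clotting, at Nfkb1, a subunit of the transcription factor NF-kB, at Bank1, a scaffold of B cell receptor signalling, and at H2afz and Dapp1. Nfkb1 lay in an E domain of 260 kb, Bank1 in one of 440 kb, and H2afz and Dapp1 in one of 520 kb. The last E domain was the shortest, 120 kb at chr3:151760001-151880000 with 3 gene starts. In the window from 140 to 150 Mb, CH12 had 0% E bins, primary B cells 11.4% and MEFs 31.4%.

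States matched between the maps less often on chromosome 3 than over all chromosomes. CH12 and primary B cells had the same state in 5600 of 7827 shared bins, or 71.5% (70.5 to 72.5%), CH12 and MEFs in 54.4% (53.3 to 55.5%) and primary B cells and MEFs in 63.6% (62.5 to 64.7%). The states differed in 2227 bins of chromosome 3 (28.5%) between CH12 and primary B cells, where 23.9% of bins over 20 chromosomes differed. They differed in 3640 bins (45.6%) between CH12 and MEFs, against 36.5%, and in 2848 bins (36.4%) between primary B cells and MEFs, against 31.4%. In the order of the 19 autosomes by agreement, chromosome 3 was the fourth, the second and the third lowest, and the agreement of the others ran from 68.0 to 80.8%, from 53.5 to 71.5% and from 59.8 to 74.4%. The chromosome was chosen on the CH12 shares, so the first 2 of these pairs are not independent of the choice.

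The differing bins were mostly later in CH12. Of those between CH12 and primary B cells, 2006 (90.1%) were later in CH12 and 221 later in primary B cells, and over 20 chromosomes 84.9% were later in CH12. Between CH12 and MEFs, 3248 (89.2%) were later in CH12 and 392 in MEFs, against 83.5%. The shares later in CH12 are not independent of the choice of the chromosome. Between primary B cells and MEFs, 2070 (72.7%) were later in primary B cells and 778 in MEFs, against 65.8%. Per the study, states of CH12 and of primary B cells were called from the RT of each cell type on its own. The RT values that separate the states can differ between maps, so a shift of a boundary value and a shift of RT cannot be told apart here.

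E bins of CH12 were mostly E in the other maps and in no case L. Of 848 E bins of CH12, 783 (92.3%) were E, 65 M and 0 L in primary B cells, and 661 (77.9%) were E, 187 M and 0 L in MEFs. Over 20 chromosomes, 90.8 and 83.2% of E bins of CH12 were E in these maps, so the first share on chromosome 3 was near that of the genome and the second below it. Only 0.0767 and 0.570% of them were L over 20 chromosomes, so the lack of L bins is not particular to chromosome 3. Of the E bins of primary B cells 47.3%, and of those of MEFs 33.3%, were E in CH12, against 73.8 and 61.5% over 20 chromosomes. The chromosome was chosen for few E bins in CH12, so these low shares are not independent of the choice. Of the L bins of primary B cells 96.0%, and of those of MEFs 92.7%, were L in CH12, which was close to the 96.2 and 92.4% over 20 chromosomes. M bins of CH12 were E in 800 of 2027 cases (39.5%), M in 1071 (52.8%) and L in 156 (7.70%) in primary B cells. Over 20 chromosomes, 26.5% of M bins of CH12 were E in primary B cells.

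Of the 23 E domains of CH12, 14 lay wholly in E of primary B cells, 8 in part and 1 not at all, and 11, 5 and 7 in MEFs. The shares wholly in E, 60.9% for primary B cells and 47.8% for MEFs, stood beside 55.0 and 42.9% over 20 chromosomes, and the shares with no E bin, 4.35 and 30.4%, beside 9.55 and 19.3%. The one outside E of primary B cells, chr3:136580001-136800000, was M in both other maps and held 1 gene start. Where an E domain of CH12 met one of primary B cells, the latter began farther out in 16 of 22 cases and ended farther out in 19 of 22, and the median outward shift over all 22 was 110 kb at the start and 170 kb at the end. Against MEFs, it began farther out in 12 of 16 cases and ended farther out in 14 of 16, with median outward shifts over all 16 of 290 and 350 kb. Neighbouring E domains of CH12 in some cases met the same domain of the other map, so these cases are not all separate. An example of 180 kb, chr3:85860001-86040000, lay in the same 4800 kb E domain of primary B cells as the longest E domain of CH12. The shifts have no value over 20 chromosomes beside them and are not independent of the choice of the chromosome. In primary B cells, 16 of 35 E domains (45.7%) held no E bin of CH12, against 29.5% over 20 chromosomes, with 369 of their 430 bins M and 61 L in CH12 and 91 gene starts. In MEFs, 17 of 31 (54.8%) held none, against 33.3%, with 394 of 701 bins M and 307 L in CH12 and 139 gene starts. The shares of E domains without an E bin of CH12 are not independent of the choice of the chromosome.

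Edges of domains seldom fell in the same place. Of 46 edges of E domains in CH12, 19 (41.3%, 28.3 to 55.7%) had an edge of an E domain of primary B cells within 100 kb, and 5 (10.9%, 4.73 to 23.0%) had one of MEFs. Over 20 chromosomes these shares were 49.6 and 27.3%. Of 100 edges of L domains, 24 (24.0%, 16.7 to 33.2%) were met in primary B cells and 9 (9.00%, 4.81 to 16.2%) in MEFs, against 25.5 and 15.0% over 20 chromosomes.

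Over the 3 maps together, 3646 of 7827 bins (46.6%) had 1 state throughout, against 55.0% over 20 chromosomes. L in all 3 covered 31.4% of the bins, E in all 3 covered 7.95% and M in all 3 covered 7.28%, against 26.0, 18.1 and 10.9% over 20 chromosomes. E in all 3 requires E in CH12, so its low share is not independent of the choice of the chromosome. The most frequent mixed combination was L in both B cell maps and M in MEFs, in 1137 bins (14.5%, against 10.6% over 20 chromosomes), and its longest run, chr3:153980001-155740000 of 1760 kb, held Lhx8, Tyw3, Cryz, BC007180, Tnni3k, Fpgt and Lrriq3. The second longest run of it, chr3:38580001-40280000 of 1700 kb, held only Fat4, a giant cadherin. L in CH12 and M in the other maps followed with 732 bins (9.35%, against 8.10%), and its longest run, chr3:152600001-153380000, held St6galnac5, a sialyltransferase.

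**Figure D4:**
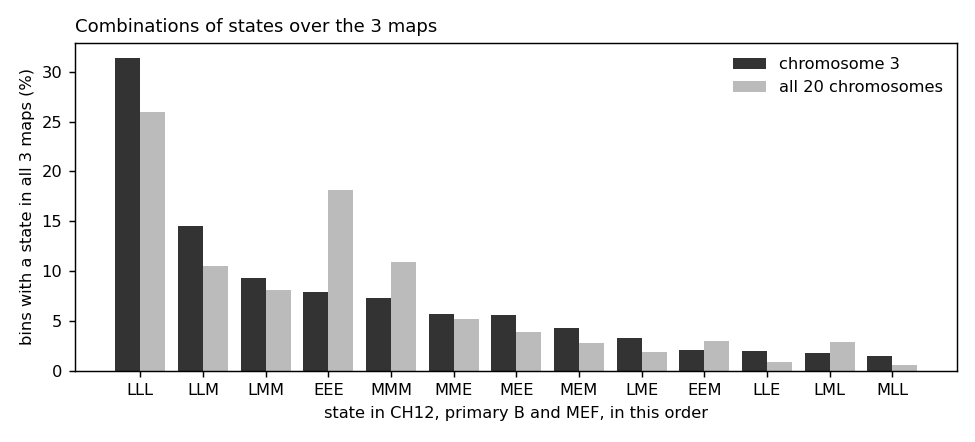
Share of bins (y axis, percent of bins with a state in all 3 maps) for each combination of states with at least 100 bins on chromosome 3, named in the order CH12, primary B, MEF, for chromosome 3 (dark) and for all 20 chromosomes (light). LLL holds 31.4% of chromosome 3 and EEE 7.95%, against 26.0 and 18.1% over all chromosomes.

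M in CH12 and E in the other maps covered 435 bins (5.56%, against 3.87% over 20 chromosomes), and its longest run, chr3:103580001-104620000 of 1040 kb, held Hipk1, Dclre1b, Ap4b1, Bcl2l15, Ptpn22, Rsbn1, Phtf1, Magi3, Lrig2, Slc16a1, Fam19a3 and Ppm1j. Ptpn22 is a phosphatase that dampens antigen receptor signalling. Further runs of this kind held, among others, Sycp1, Nras, Ampd1, Bcas2 and Trim33 (chr3:102720001-103360000) and Maml3 and Foxo1 (chr3:51580001-52200000). E in primary B cells alone, with M in CH12 and MEFs, covered 338 bins (4.32%, against 2.82%), and its 3 longest runs held Mab21l2, Dclk2, Cd1d2, Cd1d1 and Kirrel (chr3:86040001-86980000), the cluster from Clrn1 and Med12l to P2ry12 and Igsf10 (chr3:58520001-59240000), and Tet2, an enzyme that oxidises methylcytosine (chr3:133060001-133540000). E in both B cell maps and M in MEFs covered 161 bins (2.06%), less than the 2.95% over 20 chromosomes, with Fam46c, Man1a2, Vtcn1 and Trim45 in chr3:100140001-100760000, Ddx20, Rap1a, Adora3, Atp5f1, Wdr77, Ovgp1 and Chi3l7 in chr3:105400001-105880000, and Bank1 and Ppp3ca, a catalytic subunit of calcineurin, in chr3:135940001-136380000.

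E in MEFs alone, with M in both B cell maps, covered 443 bins (5.66%), close to the 5.16% over 20 chromosomes. Its longest run, chr3:122400001-123160000, held Pde5a, Fabp2, Usp53, Myoz2, Synpo2, Sec24d, Mettl14 and Prss12, the next, chr3:126100001-126700000, held Camk2d, and the third, chr3:36020001-36600000, held, among others, Qrfpr, Anxa5, Exosc9, Ccna2 and Bbs7. Ccna2 is the cyclin of S phase and entry into mitosis. L in CH12, M in primary B cells and E in MEFs covered 260 bins (3.32%, against 1.88%), and its longest run held Fndc3b, Tmem212 and Pld1 (chr3:27500001-28140000). M in CH12 and L in both others covered 120 bins (1.53%, against 0.565%) with 2 gene starts, and its longest run, chr3:42300001-43120000, held none. M in primary B cells between L in both others covered 142 bins (1.81%, against 2.84%), and runs of it held Serpini2, Pdcd10 and Serpini1 (chr3:74920001-75380000) and Ttc14, Ccdc39, Fxr1 and Dnajc19 (chr3:33640001-34040000).

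Bins with opposite states were few. Between CH12 and primary B cells, 72 bins (0.920%) in 6 runs were late in CH12 but early in primary B cells, against 0.643% of bins over 20 chromosomes. The longest, chr3:9680001-10280000 of 600 kb, held Pag1, Fabp5, Pmp2, Fabp9 and Fabp4, the Fabp genes coding for carriers of fatty acids, and was an L domain of its own in CH12, all E in primary B cells and all M in MEFs. The next, chr3:141980001-142320000 of 340 kb, held Pdlim5 and the guanylate-binding protein genes Gbp5, Gbp7, Gbp3, Gbp1 and Gbp2, and was E in MEFs too. The third, chr3:75420001-75680000 of 260 kb, held no protein-coding gene start and lay inside the longest L domain of CH12. The opposite direction, early in CH12 but late in primary B cells, had 0 bins, against 0.0178% over 20 chromosomes.

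Between CH12 and MEFs, 435 bins (5.45%) in 27 runs were L in CH12 and E in MEFs, against 2.92%, and 62 protein-coding genes start in them. The longest run, chr3:144500001-145460000 of 960 kb, held Clca4, AI747448, Clca6, Clca3, Clca5, Odf2l, Col24a1, Znhit6, Cyr61 and Ddah1, and 33 of its 48 bins were L and 15 M in primary B cells. The second, chr3:54760001-55600000 of 840 kb, held Ccna1, Spg20, Sohlh2, Dclk1 and Mab21l1 and was wholly L in primary B cells. The third, chr3:101780001-102540000 of 760 kb, held, among others, Nhlh2, Casq2, Vangl1, a planar polarity gene, and Tspan2. E in CH12 and L in MEFs was found in 0 bins, against 0.130%.

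Primary B cells and MEFs differed in both directions. In 168 bins (2.15%) in 11 runs the state was L in primary B cells and E in MEFs, against 1.00%, and the 3 longest runs lay in the same 3 places as those of CH12, around Dclk1 (900 kb), around the Clca genes and Col24a1 (660 kb) and at Casq2 and Vangl1 (380 kb). In 27 bins (0.345%) the state was E in primary B cells and L in MEFs, against 0.302%. These form 1 run, chr3:106180001-106720000 of 540 kb, which was M in CH12 and held BC051070, Dennd2d, Cept1, Dram2 and Cd53 among 8 gene starts.

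Most genes started in E or M in every map. The reading of the state numbers was checked by gene density, so the order of densities is no finding. Protein-coding genes started at 21.3 per Mb of E, 8.77 per Mb of M and 3.16 per Mb of L in CH12, at 15.7, 7.71 and 2.40 per Mb in primary B cells and at 14.8, 5.78 and 1.80 per Mb in MEFs. Of the 1057 genes, 362 (34.2%, 31.4 to 37.2%) started in E in CH12, 520 (49.2%, 46.2 to 52.2%) in primary B cells and 587 (55.5%, 52.5 to 58.5%) in MEFs, and over 20 chromosomes the shares were 50.6, 58.0 and 58.6%. Gene starts in L numbered 313 (29.6%), 187 (17.7%) and 101 (9.56%), against 22.1, 12.9 and 11.9% over 20 chromosomes. The share in L was thus above that of the genome in both B cell maps and below it in MEFs. The state at the gene start differed for 316 genes (29.9%) between CH12 and primary B cells, against 21.5% of starts over 20 chromosomes, for 469 (44.4%) between CH12 and MEFs, against 29.9%, and for 374 (35.4%) between primary B cells and MEFs, against 25.0%. Of the 316, 292 were later in CH12 and 24 later in primary B cells. All 3 maps put 312 genes in E, 117 in M and 74 in L.

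GC content followed the states. In CH12, bins of chromosome 3 had a mean GC content of 44.3% ± 3.48 in E (SD, n = 848 bins), 42.0% ± 2.82 for M and 39.1% ± 2.68 for L, with 11.1, 9.27 and 6.35 CpGs per kb. E bins over 20 chromosomes had 45.7%, and L bins 39.5%. In MEFs, the means on chromosome 3 were 43.5, 40.7 and 38.0%, and in primary B cells 43.5, 41.6 and 38.5%. Bins that were L in all maps had a GC content of 37.8% and 1.51 gene starts per Mb, and bins that were E in all maps 45.1% and 25.1.

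Among 31 immune and B cell genes, 15 were E, 11 M and 5 L at their start in CH12, against 27, 3 and 1 in primary B cells and 18, 12 and 1 in MEFs. All genes of the chromosome had 34.2, 49.2 and 55.5% in E. Some listed genes share a domain and are not separate observations, such as Fcrls, Fcrl1, Fcrl5, Sh2d2a, Mef2d and Il6ra in the longest E domain of CH12. The gene lists were written with earlier results of these data known. Tlr2, Sh2d2a, Mef2d, Il6ra, Mcl1, Notch2, Csf1, S1pr1 and Nfkb1 were E in all 3 maps. The Fc receptor-like genes Fcrls, Fcrl1 and Fcrl5 and the signalling genes Bank1 and Dapp1 were E in both B cell maps and M in MEFs. Il2 and Il12a, which encode cytokines, were M in CH12, E in primary B cells and M in MEFs, and Il21, Foxo1, Ptpn22, Lef1 and Bcl10 were M, E and E. The 5 in L in CH12 were Il7, Pag1, Tnfsf10, Cd2 and Vav3, of which Pag1 and Cd2, an adhesion receptor of lymphocytes, were E in primary B cells. Il7, the cytokine made by stromal cells, was the 1 in L in primary B cells, and Cd53 the 1 in L in MEFs.

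Of 19 genes of cell cycle and growth on the chromosome, 6 were E, 12 M and 1 L in CH12, 14 E and 5 M in primary B cells, and 12 E and 7 M in MEFs. Of all genes of the chromosome, 34.2% were E and 36.1% M in CH12, and 49.2% were E in primary B cells and 55.5% in MEFs. Fbxw7, a ubiquitin ligase subunit, Cks1b, a partner of cyclin-dependent kinases, and the ribosomal gene Rps27 were E throughout, while Nras, Pik3ca, Skil, Smc4, Eif4e and Rpl34 were M in CH12 and E in both others. Mecom, a zinc finger gene, was the 1 in L in CH12, and its 31 bins were all L there, 7 M and 24 L in primary B cells, and all M in MEFs. The 9 genes of histone cluster 2 were E in all 3 maps, in E domains of 2580, 2840 and 2760 kb. Of 13 S100 calcium-binding protein genes, 8 were E in CH12 and 11 in each of the other maps, S100a7a, S100a8 and S100a9 lying just beyond the end of the longest E domain of CH12.

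Members of tissue-specific clusters lie side by side and often in 1 domain, so they are not separate observations. Of all genes of the chromosome, 29.6% were L in CH12, 17.7% in primary B cells and 9.56% in MEFs. In the same order, 36.1, 33.1 and 34.9% were M and 34.2, 49.2 and 55.5% were E, so genes in general were also less often L in MEFs. The epidermal differentiation complex, genes for the cornified layer of skin, had 46 entries, 5 of them for Flg, with 44 L and 2 M in CH12, 38 L and 8 M in primary B cells, and 17 L and 29 M in MEFs. The Lce genes from Lce6a to Lce3c were L in all 3 maps, whereas the Sprr2 genes were L in both B cell maps and M in MEFs. The 5 guanylate-binding protein genes, induced by interferon, were L in CH12 and E in the other maps. Of 5 genes of the fatty acid binding cluster, 4 were L and 1 M in CH12, and all were E in primary B cells and M in MEFs. The 7 alcohol dehydrogenase genes were M in both B cell maps and E in MEFs. The 3 fibrinogen chains, made in liver, were L in both B cell maps and M in MEFs. The 6 amylase genes, made in pancreas and salivary gland, were L in CH12, 4 L and 2 M in primary B cells and 5 L and 1 M in MEFs. Only unique alignments were kept upstream, so the states at near-identical copies such as the amylase and Sprr2 genes are uncertain. Of 6 nucleotide receptor genes, 5 were M, E and M, among them Gpr171, P2ry14, P2ry13 and P2ry12, and P2ry1 was L, L and M. Carbonic anhydrases Car1, Car2 and Car3 were L in CH12 and M in the others, Car13 was M and Car14 E in all.

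**Figure D5:**
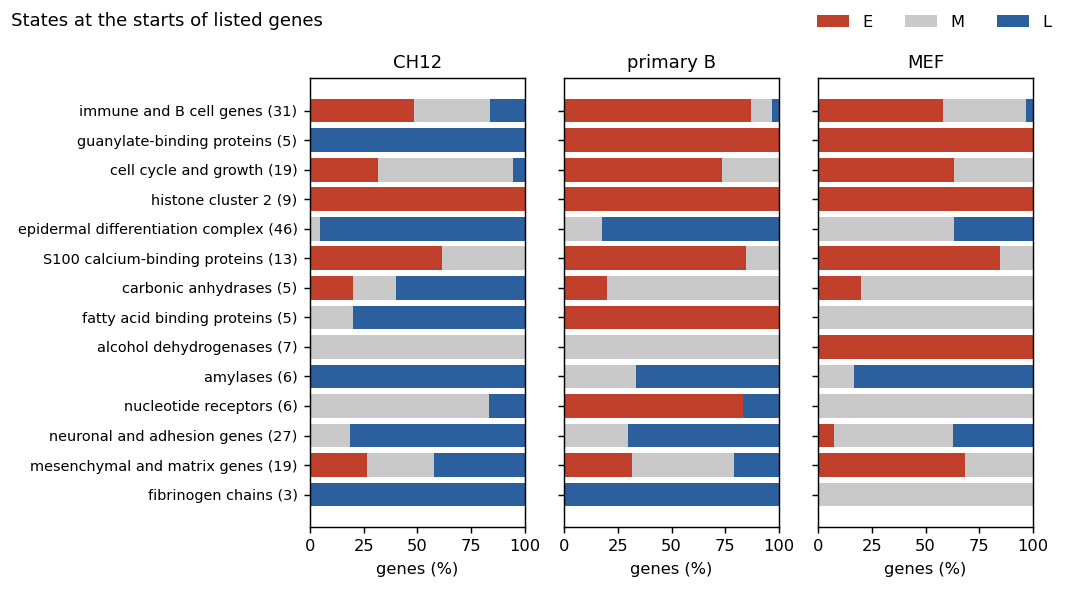
Share of genes (x axis, percent) that start in E, M or L for 14 gene lists on chromosome 3, with the number of gene entries in brackets, in the 3 maps. Immune and B cell genes are E for 15 of 31 in CH12, 27 in primary B cells and 18 in MEFs, and mesenchymal and matrix genes for 5, 6 and 13 of 19.

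Of 27 entries for neuronal and adhesion genes, 2 of them for Ntng1, 22 were L and 5 M in CH12, 19 L and 8 M in primary B cells, and 10 L, 15 M and 2 E in MEFs. The list also holds genes of other function, such as Dpyd of pyrimidine catabolism. Of all genes of the chromosome, 29.6% were L in CH12, 17.7% in primary B cells and 9.56% in MEFs. Nlgn1, Sox2, Pcdh10, Npy2r, Ntng1, Dpyd, Ndst4, Tacr3 and Negr1 were L in all 3 maps. The 2 in E in MEFs were Dclk1, L in both B cell maps, and Camk2d, M in both. Mesenchymal and matrix genes were E in MEFs for 13 of 19 and L for 0, against 5 E and 8 L in CH12 and 6 E and 4 L in primary B cells. All genes of the chromosome shifted the same way, with 55.5% E and 9.56% L in MEFs, 34.2% E and 29.6% L in CH12, and 49.2% E and 17.7% L in primary B cells. Postn, a matrix protein of fibroblasts, was L in both B cell maps and E in MEFs, and Cyr61 and Bmpr1b, a receptor for bone morphogenetic proteins, were L, M and E. Sfrp2, Lmna, Ctsk and Ecm1 were E in all 3 maps, and Mme, Fat4 and Col11a1 were L in both B cell maps and M in MEFs.

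Of the 12 protein-coding genes of at least 500 kb, 9 were L, 2 M and 1 E at their start in CH12. Primary B cells had 6, 5 and 1, and MEFs 3, 9 and 0. Of all genes of the chromosome, 29.6% were L in CH12, 17.7% in primary B cells and 9.56% in MEFs, and 36.1, 33.1 and 34.9% were M. Nlgn1, a synaptic adhesion gene of 702 kb, Dpyd, a pyrimidine catabolism gene of 871 kb, and Negr1, an adhesion gene of 755 kb, were L over their whole length in all 3 maps. Fstl5 was wholly L in CH12, where it lay in the longest L domain, while 9 of its 33 bins in primary B cells and 4 in MEFs were M, its start among them. Nbea was wholly L in both B cell maps, with 9 bins E and 20 M in MEFs. Lrba was the 1 that started in E in CH12, with 1 bin E and 28 M there, 29 bins E in primary B cells and 29 M in MEFs. Arfip1, annotated over 1391 kb, had 25 bins E and 45 M in CH12, and was E in 28 bins in primary B cells and in 16 in MEFs.

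The longest E domains of the 3 maps overlapped, while the longest L domains of primary B cells and MEFs overlapped each other and not that of CH12. The longest E domain of primary B cells, chr3:85720001-90520000 of 4800 kb, began with Prss48, Sh3d19, Rps3a, Lrba and Mab21l2 and had 182 of 240 bins E and 58 M in CH12, and that of MEFs, chr3:87320001-90660000 of 3340 kb, had 156 of 167 bins E in CH12. The longest L domain of primary B cells, chr3:41640001-50580000 of 8940 kb, held Pcdh10, Pabpc4l, Pcdh18 and Slc7a11 among 5 gene starts, with 406 of 447 bins L and 41 M in CH12. That of MEFs, chr3:41760001-49260000 of 7500 kb, lay inside it and held Pcdh10 and Pabpc4l among 3 gene starts. The longest M domain was chr3:26760001-28740000 in primary B cells (1980 kb), with Ect2, Nceh1, Tnfsf10, Ghsr, Fndc3b, Tmem212, Pld1, Tnik, Slc2a2, Eif5a2 and Rpl22l1, where CH12 had 89 L and 10 M bins and MEFs 43 E and 56 M bins. In MEFs it was chr3:98240001-101780000 (3540 kb), from Hsd3b4 to Gdap2 among its first 12 named genes, where CH12 had 39 E, 30 M and 108 L bins.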

How the data were processed

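The 3 domain maps deposited by the authors give each domain by its start, its end and a state number, a category with no scale, without RT values. The submitters' processing notes name Trim Galore 0.6.5, BWA 0.7.17, SAMtools 1.9, deepTools and bedtools 2.29.2 and the mm9 build. Per the study's methods, unique alignments were kept, replicates merged, duplicates removed, the early over late log2 ratio taken in 20 kb windows and smoothed by loess over 300 kb, and states called with hmm_bigwigs. Merging removes the replicate spread, and smoothing blurs edges.

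State numbers 2, 1 and 0 were read as E, M and L in CH12 and primary B cells, and 0, 2 and 1 in MEFs. E and L so named touched in 0 places over 20 chromosomes, and gene density fell from E to M to L in each map (18.9, 8.41 and 3.76 protein-coding genes per Mb in CH12, 16.1, 6.48 and 3.29 in MEFs). Gene starts and sequences came from GENCODE M1 and NCBIM37, which is mm9. The members, gene lists and comparisons were chosen with earlier results of these data known. Of the listed symbols, Mad2l1, Naaladl2 and Lphn3 were not found on chromosome 3 and were left out.

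Named were list genes, genes of the longest domains and of the longest runs of opposite or mixed states (3 of each, at most 12 genes a run), and genes of at least 500 kb. Symbols starting Gm or Olfr or ending Rik were counted only. Some further genes are not reported here by name. Alternatives covered the first 3 Mb, unknown bases, lengths in base pairs, edges, short domains, edge tolerances of 40 and 200 kb, gene types and gene placement. Functions were tested on simulated data. The other 5 groups were not analysed here. Analyses used Python 3.11.15, numpy 2.4.6, scipy 1.17.1 and matplotlib 3.10.9.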

Additional observations from a re-analysis of the deposited data

How the results depend on the processing

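No paired analysis was possible because each map pools its replicates, and for the same reason none could be left out. Of 126 alternative values over 60 results, 92 stayed within the main value's interval (or within 1.5 times a count) and 34 moved. The order of chromosome 3 by E share among the 19 autosomes was lowest in CH12 and second lowest in primary B cells and MEFs under each of the 3 alternatives tried. Leaving out the first 3 Mb moved the M share of CH12 to 25.9% and its L share to 63.3%, and the M share of MEFs to 38.8%, and leaving out bins of unknown bases gave 25.9, 63.3 and 38.8%. Without bins within 100 kb of an edge, the same state was found in 80.7% of bins for CH12 and primary B cells, 60.1% for CH12 and MEFs and 70.0% for primary B cells and MEFs. With a tolerance of 40 kb, 13.04% of E edges and 14% of L edges of CH12 were met in primary B cells and 1.00% of L edges in MEFs, and with 200 kb 60.9 and 44.0% were met in primary B cells. With all 1623 genes of any type, L held 33.1% of gene starts in CH12, E 46.0% and L 21.8% in primary B cells, and E 51.6% and L 12.4% in MEFs. In runs of at least 300 kb, 47 bins were late in CH12 but early in primary B cells. Runs shorter than the smoothing span are not resolved, and 4 of the 6 runs of that kind were shorter.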
